A study of Mus musculus with 12 samples.

Results

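Megakaryocytes are the large marrow cells that shed platelets, and 9 genes that mark them were followed here across age in mouse bone marrow. Gp9, Itga2b, Itgb3 and Gp6 encode platelet surface receptors, Vwf encodes the adhesive protein that tethers platelets to damaged vessels, and Pf4 and Ppbp encode chemokines stored in platelet granules. Treml1 encodes a granule membrane receptor, and Fli1 encodes an ETS family transcription factor. Chromatin peaks were given to a gene when their centre lay inside it or within 10 kb of its ends, and to the nearest of the 9 genes. This gave 47 of the 75281 deposited peaks, all at 6 of the 9 genes: 12 at Fli1, 10 at Vwf, 9 at Itgb3, 8 at Itga2b, 6 at Gp9 and 2 at Pf4. Ppbp, Gp6 and Treml1 had none.

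Megakaryocytes and red cells descend from a shared progenitor, and the transcription factor GATA1, working with FOG1 (gene Zfpm1), TAL1 and their partners, drives genes of both lineages. FLI1 and other ETS factors act with GATA1 at megakaryocyte genes, while KLF1 (gene Klf1) favours the red cell fate and opposes FLI1. The question was therefore whether peaks at platelet genes moved with age in the same direction as peaks at red cell genes that share GATA1 control.

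Accessibility was measured by ATAC-seq, in which the Tn5 transposase cuts and tags open DNA, in bone marrow of the inbred NZO/HILtJ strain (NZO, New Zealand Obese), which is prone to obesity and diabetes. There were 4 groups of 3 mice: females and males aged 3 months, and females and males aged 18 months. All mice were of this strain, and no treatment or engineered allele is named in the labels. Tissue and cell type need a remark, since the sample labels name bone marrow while the extraction protocol in the same labels describes a sort for T cells by CD3e and CD8. Of 14 T cell genes, Cd3e, Cd8a, Cd8b1 and Bcl11b had no peak within 10 kb and 10 had one. The mean at the strongest peak was 62.7 CPM for Cd3g, by a peak centred 3353 bp outside the gene. It was 49.8 for Lck and 28.3 for Cd3d, both by peaks centred inside the gene. For Cd247, Cd5, Lat and Cd4 the strongest peak was centred inside another gene. Peaks at red cell, neutrophil and platelet genes were present as well, and which cells entered the libraries cannot be told from these values. In such bulk libraries, fewer cells of a type and less open chromatin per cell cannot be told apart.

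Libraries held between 7668099 and 12756647 counts in peaks. No sequencing run held libraries of both ages, and the 18-month females (run 14) and 18-month males (run 15) each had a run of their own, so age and run cannot be told apart and no fit with run as a term was possible. The 3-month libraries came from runs 28 to 31 and are named here by sex and run. That of the 3-month male of run 30 stood apart from the others of its age. Its summed CPM over the strongest peaks of neutrophil and monocyte genes was 514.6, against 359 to 404.3 in the other 3-month mice, and its summed CPM over the Fli1 peaks was 191.6 against 129.4 to 153.2. CPM, the unit used throughout, is the count of a peak scaled to the library's total in peaks, with the total adjusted by TMM (trimmed mean of M values). Results that rest on this library are also given without it.

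Promoter sequences show where the data touch the start sites. RefSeq entries on GRCm38.p6 (the C57BL/6J genome, not that of NZO) were found for 6 of the 9 genes, and Itgb3, Vwf and Fli1 had no entry in the table used. The entry of a gene spans 250 bases before to 50 after its start site. Each window was searched on both strands for the GATA words AGATAA and TGATAA and for the ETS words CCGGAA and ACAGGAAG; no word overlaps another. Capitals mark a match in the 250 upstream bases or the short site shown here, written 5′ to 3′ along the gene. The promoters of Gp9 (plus strand, chr6:87777820-87778069) and Itga2b (minus strand, chr11:102469884-102470133) are shown because a peak covered all 300 bases of each window. The third is that of the red cell membrane gene Epb42 (minus strand, chr2:121036878-121037127), shown as an erythroid promoter that a peak also covered in full. The fourth is a 30-base site just inside the start of Pf4 (plus strand, chr5:90772448-90772477), which holds both kinds of word.
Gp9: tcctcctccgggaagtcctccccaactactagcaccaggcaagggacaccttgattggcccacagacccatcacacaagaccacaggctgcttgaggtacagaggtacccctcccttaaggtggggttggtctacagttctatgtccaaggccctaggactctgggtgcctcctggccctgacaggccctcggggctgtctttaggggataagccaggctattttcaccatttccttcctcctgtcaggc
Itga2b: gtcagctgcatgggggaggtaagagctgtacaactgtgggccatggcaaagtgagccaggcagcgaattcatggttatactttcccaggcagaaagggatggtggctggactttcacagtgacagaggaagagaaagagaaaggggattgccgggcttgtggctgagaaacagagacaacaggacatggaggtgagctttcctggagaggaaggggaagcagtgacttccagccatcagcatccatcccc
Epb42: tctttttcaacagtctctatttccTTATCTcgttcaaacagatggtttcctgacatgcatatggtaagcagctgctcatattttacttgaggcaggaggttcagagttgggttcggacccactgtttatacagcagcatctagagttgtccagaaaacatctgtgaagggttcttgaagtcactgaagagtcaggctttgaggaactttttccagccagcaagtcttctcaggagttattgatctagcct
Pf4: tTTCCGGactgggcaggcagtgaAGATAAa

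A GATA word was found in 2 of the 6 platelet gene windows (Pf4 and Gp6) and in 18.6% of all 32851 promoter windows of the table. It was found in 14 of 24 windows (58.3%) of 19 genes of an erythroid list defined further on, or 14 of the 19 genes. An ETS word was found in 1 of the 6 windows (Pf4), in 17.9% of all windows and in 0 of the 24 erythroid windows. In Pf4 the ETS word lay 14 to 19 bases past the start site on the opposite strand, and the GATA word lay 36 to 41 bases past it. The Gp9 and Itga2b windows, although open, held none of the 4 words. A match is only a run of letters, and its absence says nothing about the factor.

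With age, peaks at the platelet genes did not move as a block. Accessibility fell at peaks of Gp9, Vwf and Itga2b and rose at peaks of Fli1 and at 1 of Itgb3, and no change was detected at Pf4. Of the 47 peaks, all of which passed the filter on low counts, 8 fell (17.02%) and 4 rose (8.51%) at an edgeR adjusted p under 0.05 (referred to as called), while 35 did not pass. Over all 75164 tested peaks, 11.6% fell and 9.43% rose by the same rule. At an unadjusted p under 0.05, 20 of the 47 passed (42.6%), against 33.4% of all tested peaks. The median log2 fold change, 18 months over 3 months, was 0.08 over the 47 peaks and 0.02 over all tested peaks, with 25 of the 47 above 0 and 22 under it. The CPM ranges of the ages did not overlap at 6 of the 47 peaks, 5 of them lower and 1 higher at 18 months, and at 7.24% of all tested peaks. With library sizes taken as total counts, without TMM factors, 5 of the 47 rose and 6 fell. That scaling moved the median of all tested peaks to 0.10 and the share of higher peaks among all calls from 44.9% to 62.8%.

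**Figure D1:**
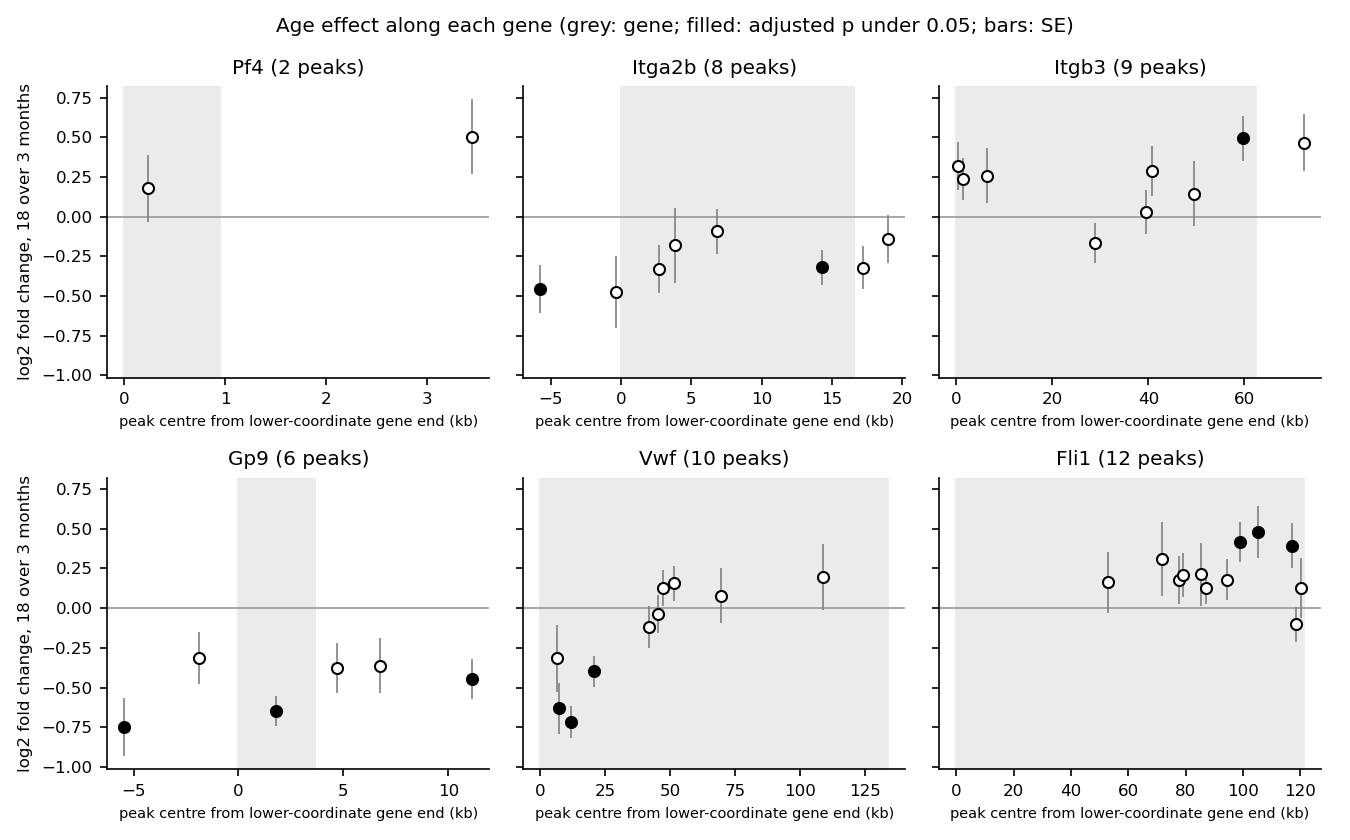
Log2 fold change of accessibility, 18 over 3 months (y axis, edgeR, with 1 SE), of every peak against the distance of its centre from the lower-coordinate end of its gene in kb (x axis), for the 6 genes with peaks. Grey bands are the genes and filled points passed an adjusted p of 0.05; all 6 Gp9 and all 8 Itga2b points lie under 0, 11 of 12 Fli1 and 8 of 9 Itgb3 points lie above it, and the called Vwf points lie toward 1 end of the gene.

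Gp9 is a subunit of the GPIb-IX-V complex through which platelets bind von Willebrand factor. Among the 6 genes with peaks it had the lowest median log2 fold change (-0.41), with all 6 of its peaks under 0. Its strongest peak (chr6:87775798-87780068) spans the whole gene and is the widest of the 47, at 4271 bp. In the 6 mice of 3 months this peak had CPM of 52.5 at the lowest, 57.8 at the median and 63.6 at the highest. In the 6 mice of 18 months it had 32.3, 37.2 and 42.2. Every 18-month mouse lay under every 3-month mouse, with a mean of 37.1 ± 3.99 against 58.0 ± 4.69 (SD, n = 6 each). The log2 fold change was -0.65 (SE 0.095, edgeR adjusted p = 1.02e-06).

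The largest relative fall at Gp9 was at a weak peak, chr6:87770472-87770926, on the lower-coordinate side of the gene. It had CPM of 5.01, 5.50 and 6.58 (lowest, median, highest) at 3 months and 2.63, 3.45 and 4.16 at 18 months. The ages again did not overlap, and the log2 fold change was -0.75 (SE 0.18, edgeR adjusted p = 0.00207). The third called peak, chr6:87786613-87787917, lies on the other side, where Rab43 is the nearest protein-coding gene. Its log2 fold change was -0.45 (SE 0.12, edgeR adjusted p = 0.00716), and its ranges met, at 13.3 to 19.7 CPM against 7.90 to 13.4. The remaining 3 Gp9 peaks had log2 fold changes of -0.38, -0.36 and -0.31 and did not pass.

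Summed over its 6 peaks, Gp9 had CPM of 92.1 to 107.1 (median 100.2) in 3-month mice and 58.5 to 78.2 (median 68.1) in 18-month mice. These sums do not overlap. All 3 called Gp9 peaks remained called under each of 19 alternative settings, which included leaving out any 1 of the 12 libraries. The log2 fold change of the strongest peak shrank to -0.41 with offsets smoothed on width and to -0.46 with offsets smoothed on abundance.

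**Figure D2:**
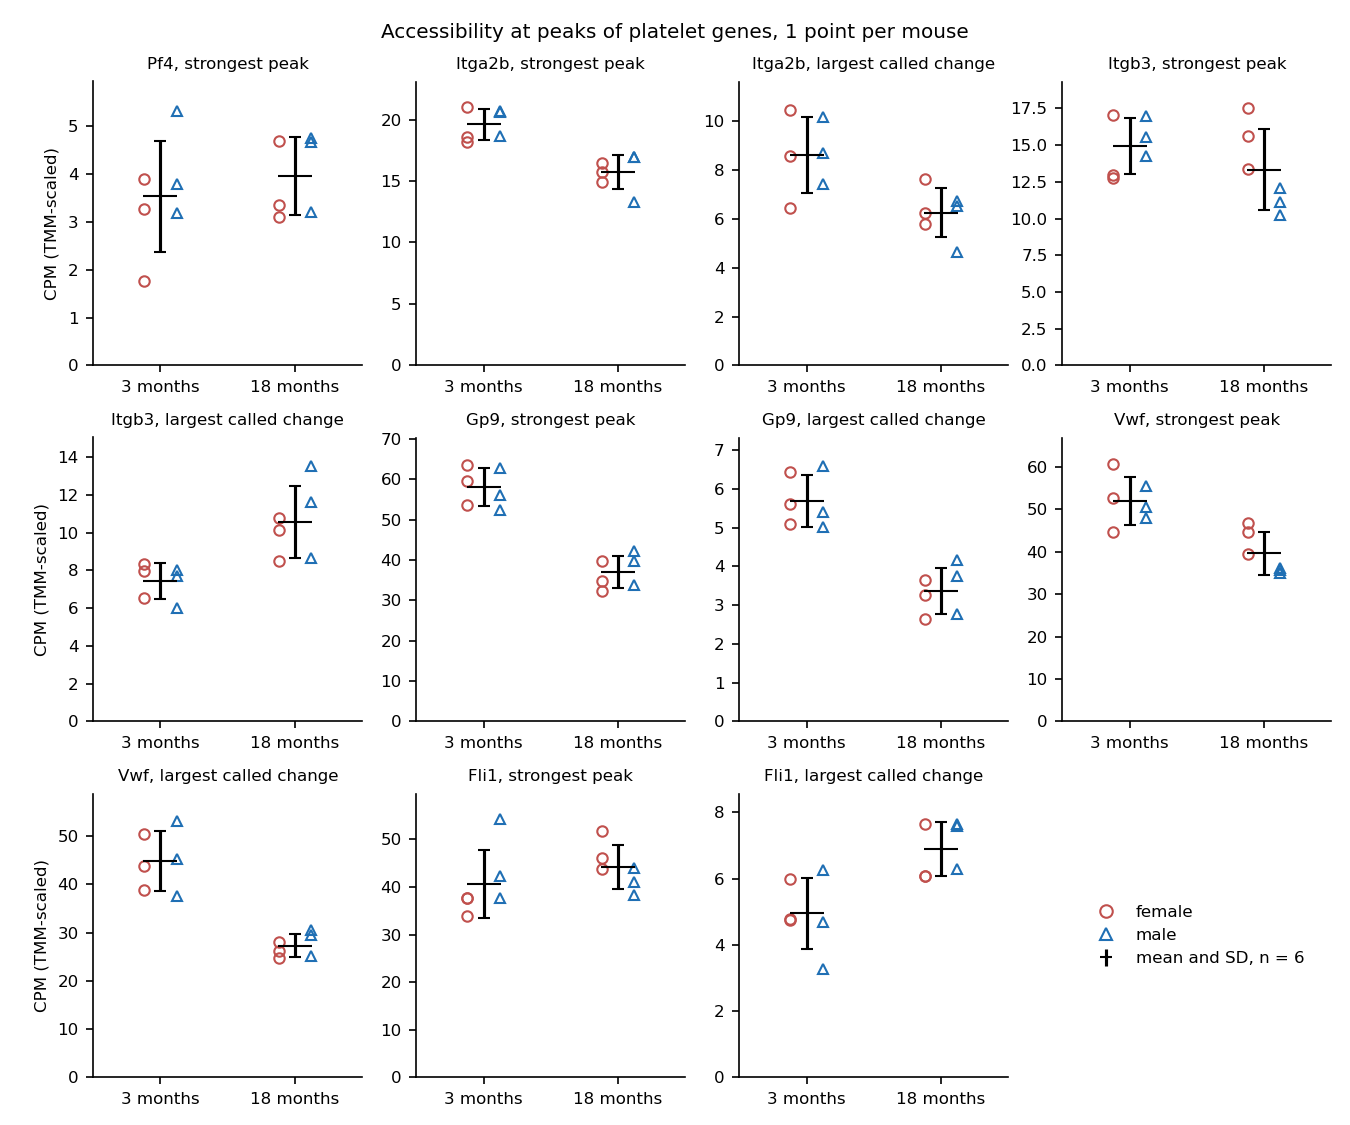
TMM-scaled CPM of each mouse (y axis, from 0) at 3 and 18 months (x axis), at the strongest peak of each of 6 genes and at the peak with the largest called change where that is another peak. Circles are females, triangles males, and bars the mean and SD of 6 mice; both Gp9 peaks, the Itga2b strongest peak, the called Itgb3 peak and the most changed Vwf peak show no overlap between the ages, and the other 6 panels do.

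Itga2b and Itgb3 encode the 2 chains of the platelet fibrinogen receptor, integrin αIIbβ3. The 2 called peaks of Itga2b fell and the single called peak of Itgb3 rose, and the difference between the genes was not tested. Itga2b encodes the αIIb chain, which is close to specific to the megakaryocyte line and early progenitors. All 8 Itga2b peaks had negative log2 fold changes, from -0.47 to -0.09 with a median of -0.32, and 2 passed. The strongest peak, inside the gene at chr11:102466759-102468403, had CPM of 18.2, 19.6 and 21.0 (lowest, median, highest) at 3 months and 13.3, 16.1 and 16.9 at 18 months. The ages did not overlap there, and the fall was modest, with a log2 fold change of -0.32 (SE 0.11, edgeR adjusted p = 0.0296).

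The other called Itga2b peak, chr11:102447156-102447962, has its centre inside the neighbouring gene Fam171a2. It had CPM of 6.43, 8.63 and 10.5 at 3 months and 4.64, 6.36 and 7.61 at 18 months, so the ranges overlap. Its log2 fold change was -0.45 (SE 0.15, edgeR adjusted p = 0.0259). The peak that covers the Itga2b promoter printed above (chr11:102469833-102471188) had CPM of 12.5 to 16.5 at 3 months and 6.50 to 13.3 at 18 months. Its log2 fold change of -0.32 (SE 0.13) did not pass (edgeR adjusted p = 0.0785).

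Both Itga2b calls sat near the threshold. Across the 19 alternatives the strongest peak was called in 12 and the Fam171a2 peak in 14. Leaving out 18-month female 35, 18-month male 39, the 3-month female of run 29 or the 3-month male of run 31 ended the call at the strongest peak, with log2 fold changes of -0.31, -0.27, -0.30 and -0.31. So did total counts (-0.24) and offsets smoothed on abundance (-0.28) or width (-0.21). At the Fam171a2 peak, leaving out 18-month female 42, 18-month male 40, the 3-month female of run 31 or the 3-month male of run 29 did so, at -0.43, -0.39, -0.39 and -0.40, as did total counts, at -0.38.

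Itgb3 encodes the β3 chain, which also pairs with the αv chain on osteoclasts and endothelial cells. Of its 9 peaks, 8 had positive log2 fold changes, and the median was 0.26. A single peak, at chr11:104667371-104668136 inside the gene, rose: CPM was 6.03, 7.84 and 8.36 at 3 months and 8.50, 10.5 and 13.6 at 18 months, with no overlap. The log2 fold change was 0.49 (SE 0.14, edgeR adjusted p = 0.00884), and the call remained under all 19 alternatives. The number of positive peaks was 7 of 9 in 4 of the alternatives, each of which left out 1 library, and 8 in the others. The strongest Itgb3 peak, chr11:104636242-104637598, was the single one with a negative value. It had CPM of 12.8, 14.9 and 17.1 at 3 months and 10.2, 12.8 and 17.5 at 18 months, a log2 fold change of -0.17 (SE 0.13, edgeR adjusted p = 0.369).

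Set beside each other as sums over all their peaks, Itga2b had CPM of 70.8 to 78.0 at 3 months and 56.7 to 68.6 at 18 months, with no overlap. Itgb3 had 61.9 to 82.8 and 73.4 to 87.9, which overlap. The log2 ratio of the Itga2b sum to the Itgb3 sum ran from -0.23 to 0.32 at 3 months and from -0.63 to -0.22 at 18 months, so that the ranges met through the lowest 3-month value, that of the 3-month male of run 30. Without that mouse the 3-month range was 0.0066 to 0.32, and the ages did not overlap. The ratio was formed after the direction of both genes was known and is given as a description.

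Vwf encodes von Willebrand factor, made by megakaryocytes and endothelial cells, and its peaks split by position. All 10 lie inside the gene. The 4 nearest its lower-coordinate end had log2 fold changes of -0.72 to -0.32, and 3 of them fell. The other 6 lay between -0.12 and 0.20, and none of these passed. The largest fall was at chr6:125563041-125566406, where CPM was 37.5, 44.5 and 53.0 (lowest, median, highest) at 3 months and 24.6, 27.1 and 30.5 at 18 months. Here the ages did not overlap, and the log2 fold change was -0.72 (SE 0.10, edgeR adjusted p = 4.07e-07).

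The strongest Vwf peak, chr6:125572223-125574892, had CPM of 44.7, 51.6 and 60.7 at 3 months and 34.9, 37.8 and 46.7 at 18 months. Its ranges overlap, since 2 of the 18-month females reached the lowest 3-month value. The log2 fold change was -0.40 (SE 0.096, edgeR adjusted p = 0.00192). With offsets smoothed on peak width the call was lost, at -0.21, and with offsets smoothed on abundance it was kept at -0.22 (edgeR adjusted p = 0.0317). It was kept under the other 17 alternatives. The third called peak, chr6:125559868-125560501, had 6.03 to 7.30 CPM at 3 months and 3.73 to 5.40 at 18 months, a log2 fold change of -0.63 (SE 0.16, edgeR adjusted p = 0.00351). It and the most changed peak were called under all 19 alternatives.

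Because Vwf is also an endothelial gene, endothelial markers are given beside it. Of 14 such genes 11 had a peak, while Emcn, Sox17 and Tek had none. The summed CPM of their strongest peaks was 140.7 to 169.4 at 3 months and 136.8 to 163.6 at 18 months, ranges that overlap almost in full. Of the 45 endothelial peaks, 4 rose and 3 fell, with a median log2 fold change of 0.02. Summed over its 10 peaks, Vwf had 163.9 to 193.9 CPM at 3 months and 142.1 to 151.5 at 18 months, with no overlap. The part of endothelial cells in the Vwf result was not tested.

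Pf4 encodes platelet factor 4 and is among the genes used to mark megakaryocytes, yet it had only 2 weak peaks. The peak inside the gene, chr5:90772461-90772873, covers 24 of the 300 promoter bases, and these include part of the printed site. It had CPM of 1.76, 3.53 and 5.32 (lowest, median, highest) at 3 months and 3.11, 4.01 and 4.77 at 18 months. The 18-month values lie inside the 3-month range, and the log2 fold change was 0.18 (SE 0.21, edgeR adjusted p = 0.593). The other peak, chr5:90775736-90776036, had a log2 fold change of 0.50 (SE 0.24, edgeR adjusted p = 0.12). Neither peak passed, and their SEs are among the larger of the 47.

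The genes to which no peak was given were Ppbp, which encodes the precursor of the chemokine CXCL7, Gp6, the platelet collagen receptor, and Treml1. Both Pf4 peaks also lie within 10 kb of Ppbp and were given to Pf4 as the nearer gene. No change can be given for them. Outside the windows, the nearest peak that lies closer to Ppbp than to Pf4 was 26249 bp away (log2 fold change 0.31, edgeR adjusted p = 0.0723). A peak near Cxcl3 is closer to Ppbp than that one, but lies nearer still to Pf4 (0.59, edgeR adjusted p = 0.000713). For Treml1 the nearest was inside the neighbouring gene Trem2 (0.47, edgeR adjusted p = 0.0198). For Gp6 the nearest was inside Rdh13 (0.04, edgeR adjusted p = 0.835). These peaks lie nearer to other genes and are not counted.

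Fli1 had the most peaks, 12, all inside the gene, and 11 of them had positive log2 fold changes, from 0.13 to 0.48 with a median over all 12 of 0.19. Its protein is needed for megakaryocyte maturation, but the gene is also active in stem cells, lymphocytes, other blood cells and endothelium. Of the 12 peaks, 3 rose. The largest rise, at chr9:32526999-32527665, went from CPM of 3.28, 4.76 and 6.26 at 3 months to 6.07, 6.95 and 7.65 at 18 months. The ranges overlap through the 3-month male of run 30, at 6.26, and the log2 fold change was 0.48 (SE 0.17, edgeR adjusted p = 0.0313).

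At chr9:32520475-32521795, CPM was 7.36, 11.5 and 12.7 at 3 months and 12.5, 14.2 and 18.3 at 18 months, a narrow overlap. Here the log2 fold change was 0.41 (SE 0.13, edgeR adjusted p = 0.0141). The third, chr9:32538946-32539678, went from 7.68, 11.5 and 18.0 to 12.6, 16.6 and 17.8, with wide overlap (0.39, SE 0.14, edgeR adjusted p = 0.0386). The strongest Fli1 peak, chr9:32508180-32510258, had 34.0, 37.7 and 54.2 CPM at 3 months and 38.3, 43.9 and 51.7 at 18 months. It did not pass (log2 fold change 0.13, SE 0.10, edgeR adjusted p = 0.401). It passed under offsets smoothed on abundance or width, at 0.31 and 0.29. Without the 3-month male of run 30 the value was 0.22 (edgeR adjusted p = 0.0544), and without 18-month female 36 or the 3-month female of run 29 it was 0.07.

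Of the 12 called peaks, 2 at Fli1 were the least stable. The Fli1 calls remained in 10, 17 and 9 of the 19 alternatives for the peaks at chr9:32526999-32527665, chr9:32520475-32521795 and chr9:32538946-32539678. Over these alternatives their log2 fold changes stayed positive, from 0.37 to 0.56, 0.33 to 0.49 and 0.28 to 0.52. The call at the first was lost without 18-month female 36, 18-month male 38 or 40, the 3-month female of run 28 or 31, or the 3-month male of run 29 or 31, and that at the second without 18-month male 39 or the 3-month female of run 28. That at the third was lost without 18-month female 35, 36 or 42, 18-month male 40, the 3-month female of run 28 or 29, or the 3-month male of run 31. Abundance offsets also ended the call at the first, width offsets those at the first and the third, and DESeq2 and a model without sex that at the third. Leaving out the 3-month female of run 28 left 1 of the 47 peaks higher, the Itgb3 peak, and leaving out 18-month female 36 left 2. The number of Fli1 peaks above 0 ran from 10 (width offsets) to 12 (abundance offsets, or without the 3-month male of run 30). Summed over its peaks, Fli1 had 129.4 to 191.6 CPM at 3 months and 154.3 to 173.5 at 18 months. Those ranges overlap only through the 3-month male of run 30: without it the 3-month range was 129.4 to 153.2.

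Per kb of peak, the strongest peaks of Vwf and Fli1 were the most accessible and the others lay close together. At 3 months the median was 19.3 CPM per kb for Vwf and 18.1 for Fli1. It was 13.5 for Gp9, 11.9 for Itga2b, 11.01 for Itgb3 and 8.56 for Pf4. Neighbours in this order overlapped across mice, except that the lowest Fli1 value, 16.4, lay above the highest Gp9 value, 14.9. At 18 months the order began with Fli1 (21.1) and Vwf (14.2), whose ranges did not overlap (18.4 to 24.9 against 13.1 to 17.5). Both lay above the other 4 genes (Itga2b 9.79, Pf4 9.71, Itgb3 9.40, Gp9 8.72), whose ranges overlapped.

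Tested in each sex separately, 2 of the 12 called peaks passed in both. In females, 5 of the 47 peaks fell and 2 rose, against 6.2% lower and 5.7% higher over all tested peaks. In males, 3 fell and 1 rose, against 8.18% lower and 3.21% higher. The strongest Gp9 peak and the most changed Vwf peak were those that fell in both. At the Gp9 peak the log2 fold change was -0.73 in females (SE 0.13, edgeR adjusted p = 5.57e-05) and -0.56 in males (SE 0.13, edgeR adjusted p = 0.00196). At the Vwf peak it was -0.76 in females (SE 0.14, edgeR adjusted p = 8.255e-05) and -0.68 in males (SE 0.14, edgeR adjusted p = 0.000496).

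At the most changed Gp9 peak, chr6:87770472-87770926, the log2 fold change passed in females (-0.84, edgeR adjusted p = 0.0226) and not in males (-0.65, edgeR adjusted p = 0.0926). The same held at the Vwf peak chr6:125559868-125560501 (-0.75, edgeR adjusted p = 0.0239, and -0.51, edgeR adjusted p = 0.144). The reverse held at the strongest Vwf peak, which passed in males (-0.53, edgeR adjusted p = 0.00387) and not in females (-0.27, edgeR adjusted p = 0.16), and at the called Itgb3 peak (0.63, edgeR adjusted p = 0.0271 in males, and 0.36, edgeR adjusted p = 0.236 in females). Another Itgb3 peak, chr11:104608044-104608566, which was not called over both sexes, passed in females (0.61, edgeR adjusted p = 0.0369) and not in males (0.02, edgeR adjusted p = 0.968). Its interaction of age with sex did not pass (edgeR adjusted p = 0.486). The sign was the same in both sexes at 33 of the 47 peaks and at 11 of the 12 called ones. The exception was the Fli1 peak chr9:32538946-32539678. Its CPM in 3-month females was 7.68, 9.26 and 12.0, and in 18-month females 16.7, 16.8 and 17.8, without overlap. In males it was 10.9, 14.7 and 18.0 at 3 months and 12.6, 13.6 and 16.4 at 18 months. The log2 fold change was 0.82 in females (SE 0.18, edgeR adjusted p = 0.000895) and -0.03 in males (SE 0.18, edgeR adjusted p = 0.947). Without the 3-month male of run 30, the highest of the 3-month males, the male value was 0.15 (SE 0.18, edgeR adjusted p = 0.668) and the interaction -0.66 (edgeR adjusted p = 0.572).

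The test of the difference between the sexes called 0 of the 47 peaks in edgeR, and 0 in DESeq2, against 0.00532% of all tested peaks. The Fli1 peak had the smallest adjusted p of the 47 (edgeR interaction log2 difference, male minus female, -0.85, SE 0.25, adjusted p = 0.249). At an unadjusted p under 0.05 there were 5 of 47, against 10.0% of all tested peaks. Without the 3-month male of run 31, 2 Fli1 peaks were called for the interaction, this one (edgeR adjusted p = 0.0144) and the strongest (edgeR adjusted p = 0.0451). Sex and run cannot be told apart at 18 months.

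**Figure D3:**
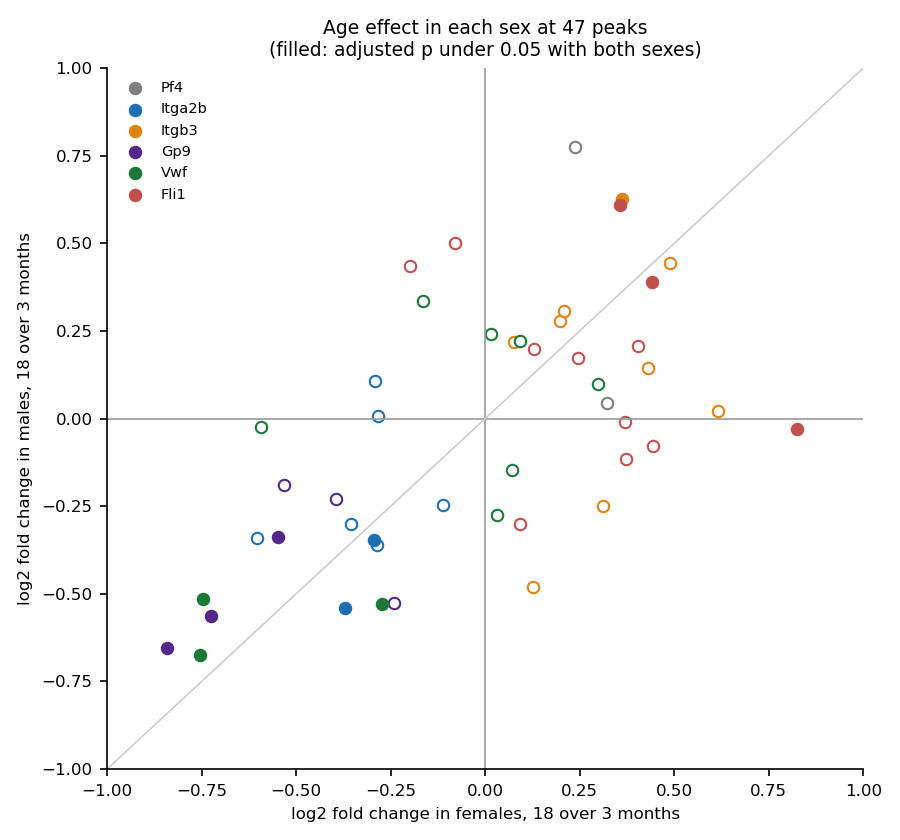
Log2 fold change with age (18 over 3 months, edgeR) in females (x axis) and in males (y axis), 1 point per peak for the 47 peaks, coloured by gene; filled points passed an adjusted p of 0.05 with both sexes together, and the diagonal marks equal values. Points share a sign in both sexes at 33 peaks, and of the filled points 1 (Fli1) lies under the horizontal zero line at the far right.

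Called peaks of red cell genes all went down with age, while those of platelet genes went both ways. The erythroid list held 28 genes of haemoglobin, haem synthesis, the red cell membrane and their regulators, of which 27 had peaks (Ahsp was not found in the gene table). Of its 258 peaks, 155 fell (60.1%) and 0 rose in edgeR or in DESeq2, with 1 higher at an unadjusted p under 0.05, and the median log2 fold change was -0.47. At the strongest peak of each gene, 26 of 27 fell, with a median of -0.75; the exception was Epb42 (-0.21, SE 0.094, edgeR adjusted p = 0.104), by a peak inside Ccndbp1. The 3 largest falls were near Hbb-bs (-1.24, SE 0.10, edgeR adjusted p = 1.23e-12), which encodes adult β-globin, at Slc4a1 (-1.14, SE 0.093, edgeR adjusted p = 9.95e-13), the band 3 anion exchanger, and near Hba-a1 (-1.13, SE 0.099, edgeR adjusted p = 7.44e-12), which encodes α-globin. Globin genes have near-identical copies, so their reads may be split between copies.

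For the strongest peaks, 3 of the 6 platelet genes fell (Gp9, Vwf and Itga2b), with a median of -0.24 and a lowest value of -0.65. The summed CPM of the strongest erythroid peaks was 1724 to 2130 at 3 months and 1151 to 1255 at 18 months. That of the 6 strongest platelet gene peaks was 173.6 to 206 at 3 months and 141 to 172.5 at 18 months. Neither pair of ranges overlaps, although the second pair nearly meets. The peak over the Epb42 promoter printed above, chr2:121035606-121037578, which is not the strongest of that gene, had a log2 fold change of -1.15 (SE 0.10, edgeR adjusted p = 1.52e-11), beside -0.65 at the Gp9 and -0.32 at the Itga2b promoter peaks. Epb42 stands here for a single erythroid promoter, and its fall there was larger than the median of -0.75 at the strongest erythroid peaks. A peak also covered the Klf1 promoter in full, and its value is not given here. The difference between the lists as such was not tested.

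Peaks at the genes of GATA1 itself and of the cofactors used in both lineages fell as well. Of 102 peaks at 9 such genes, 49 fell and 2 rose, with a median of -0.32, and at the strongest peaks 8 of 9 fell. The largest falls were at Gata1 (-0.96, SE 0.14, edgeR adjusted p = 1.17e-06), at Gfi1b, a repressor needed in both lineages (-0.73, SE 0.092, edgeR adjusted p = 4.00e-08), and at Zfpm1, which encodes the GATA1 partner FOG1 (-0.67, SE 0.082, edgeR adjusted p = 1.98e-08). Runx1, needed to form megakaryocytes, was the single one that did not pass (-0.01, SE 0.095, edgeR adjusted p = 0.955).

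A list of 21 cytokine, receptor and transcription factor genes of megakaryocytes includes those 9. Over all 21, 59 of 216 peaks fell and 17 rose (median -0.08). At the 12 genes apart from those 9, 10 of 114 peaks fell (8.77%) and 15 rose (13.2%), with a median of 0.14, against 11.6% and 9.43% of all tested peaks. At their strongest peaks 3 fell and 1 rose. The ETS gene Erg was the single one to rise there (0.39, SE 0.10, edgeR adjusted p = 0.00441), by a peak centred 9698 bp from the gene. Of the 20 Erg peaks, 3 rose and 1 fell. Like Fli1, Erg belongs to the ETS family and is active in stem cells. The other ETS genes of the list did not rise at their strongest peaks. Etv6 fell (-0.38, SE 0.11, edgeR adjusted p = 0.00785), and Gabpa (-0.16) and Ets1 (-0.006) did not pass. Over all their peaks, Etv6 and Ets1 each had 4 higher and 1 lower, and Gabpa had none called.

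Among 23 other platelet receptor and signalling genes, 21 of 138 peaks rose (15.2%) and 6 fell (4.35%), with a median of 0.05. F2rl3 had no peak, and of the 21 rises 6 were at the kinase gene Syk and 3 at P2rx1. At the strongest peaks 6 rose and 4 fell. The largest falls were at the ADP receptor gene P2ry1 (-0.55, SE 0.098, edgeR adjusted p = 3.26e-05), the phospholipase gene Plcg2 (-0.48, SE 0.11, edgeR adjusted p = 0.00161) and the prostaglandin receptor gene Ptger3 (-0.43, SE 0.13, edgeR adjusted p = 0.0125). The largest rises were at the tetraspanin gene Cd9 (0.45, SE 0.11, edgeR adjusted p = 0.0025), the second ADP receptor gene P2ry12 (0.40, SE 0.12, edgeR adjusted p = 0.0126), by a peak inside Med12l, and Clec1b, the podoplanin receptor (0.37, SE 0.13, edgeR adjusted p = 0.0393), by a peak inside Clec12b. Gp5, which joins Gp9 in the GPIb-IX-V complex, had 1 peak that did not pass (-0.35, SE 0.14, edgeR adjusted p = 0.0612). Gp1ba and Gp1bb, the other members of that complex, had -0.06 and 0.12 at their strongest peaks, which lie inside Rnf167 and Septin5, and did not pass (edgeR adjusted p = 0.643 and 0.529). Of the 7 Gp1ba peaks 1 fell (chr11:70638248-70640342, -0.34, SE 0.11, edgeR adjusted p = 0.0229), and none of the 5 Gp1bb peaks were called.

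Among 25 genes of granules, cytoskeleton and lipid mediators, 19 of 157 peaks fell (12.1%) and 15 rose (9.55%), with a median of 0.10, and Cavin2 and Trpc6 had no peak. These shares are close to those of all tested peaks. At the strongest peaks 5 fell and 2 rose. Mmrn1, which encodes multimerin of the α-granules, fell by 0.78 on the log2 scale (SE 0.12, edgeR adjusted p = 4e-06). Tbxas1, thromboxane synthase, fell by 0.57 (SE 0.089, edgeR adjusted p = 2.785e-06) and Vps33b, needed for α-granule formation, by 0.38 (SE 0.099, edgeR adjusted p = 0.00437). The Mmrn1 and Vps33b peaks are centred outside their genes, 8889 and 2674 bp away, and the Tbxas1 peak inside its gene. Plek, which encodes the protein kinase C substrate pleckstrin and is also active in leukocytes, rose by 0.76 (SE 0.12, edgeR adjusted p = 2.51e-06), and Serpine2, a protease inhibitor, by 0.59 (SE 0.19, edgeR adjusted p = 0.0233).

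**Figure D4:**
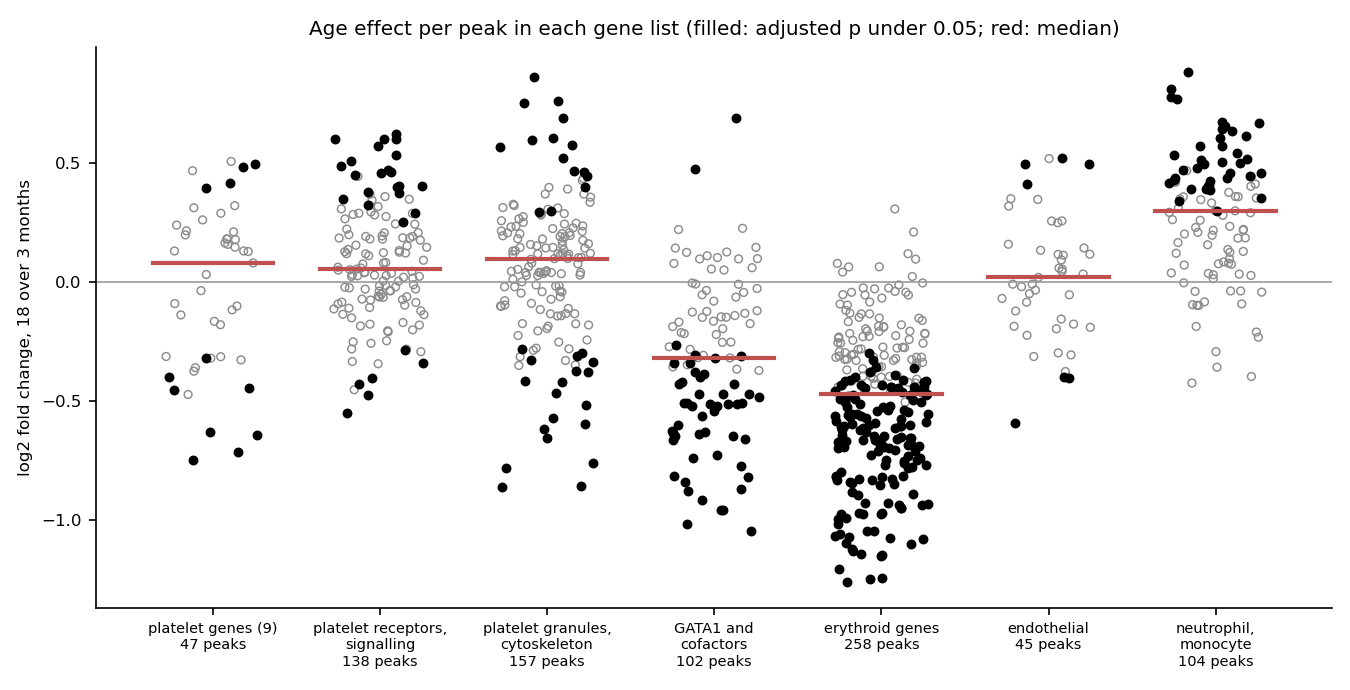
Log2 fold change with age (y axis, 18 over 3 months, edgeR) of each peak in 7 gene lists (x axis); filled points passed an adjusted p of 0.05 and red lines are medians. The 47 peaks of the 9 platelet genes have a median of 0.08, with called peaks on both sides of 0, while the 258 erythroid peaks have a median of -0.47 and no called peak above 0.

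Values for other cell types are set beside those of the platelet genes, to be read against the 9.43% of all tested peaks that rose and the 11.6% that fell. Neutrophil and monocyte genes had 38 of 104 peaks higher (36.5%, median 0.30), with summed CPM of 359 to 514.6 at 3 months and 456.9 to 535.6 at 18 months. Without the 3-month male of run 30 the 3-month range was 359 to 404.3, under every 18-month value. Mast cell and basophil genes had 15 of 30 higher (50%, median 0.40), of which 7 were at Hdc and 8 at Cd200r3 and none at the 6 other genes with peaks. Osteoclast genes, given because osteoclasts carry Itgb3, had 10 of 43 higher and 3 lower (median 0.14). Stem and progenitor genes, given because they are active where Fli1 and Itga2b are, had 4 of 50 higher and 1 lower (median 0.00035). T cell genes had 2 of 48 higher and 4 lower and B cell genes 4 of 75 higher and 7 lower. In the stem, T cell and B cell lists both shares lay under those of all tested peaks. T cell summed CPM was 300.6 to 350.7 at 3 months and 300.1 to 341.2 at 18 months. The part of any of these cell types in the platelet gene results was not tested.

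Strong peaks fell more often than weak ones in the whole table, so the 47 are also given by strength. In the top quartile of tested peaks by mean CPM, 27.9% fell and 9.13% rose, and 13 of the 47 peaks were in it, of which 5 fell and 1 rose. In the quartile below, 10.7% of all tested peaks fell and 12.0% rose, and of the 13 platelet gene peaks there 1 fell and 2 rose. In the next, 5.18% fell and 9.66% rose, against 2 and 1 of 13. In the lowest quartile, 2.49% fell and 6.97% rose, and none of the 8 platelet gene peaks there were called. With offsets that remove the trend with abundance, 8 of the 47 were again lower and 4 higher, and 10 of the 12 calls were kept.

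The choice of 10 kb left some near peaks out. The last peak counted for Itgb3 lies 9911 bp from the gene (log2 fold change 0.47, SE 0.18, edgeR adjusted p = 0.0553), and the first one left out, 11377 bp away, had 0.17 (SE 0.23, edgeR adjusted p = 0.644). For Gp9 the last counted peak is the one next to Rab43, 7479 bp away. The first left out, 10711 bp away and inside Rab43, had -0.48 (SE 0.088, edgeR adjusted p = 6.24e-05). The first peak left out at Pf4, near Cxcl3, had 0.59 (SE 0.13, edgeR adjusted p = 0.000713).

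Genes most like the platelet genes were sought by correlating the strongest peak of each of 16165 other genes with the mean standardised log2 CPM of the 6 strongest platelet gene peaks over the 12 libraries. The closest were Slc35e3 (Pearson r = 0.947), Sall2 and Mettl3, which share a peak (0.947), and Ccdc25 and Esco2, which also share one (0.940). The 12 libraries share the age difference and its runs, so these values are a description of likeness only.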

How the data were processed

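Per the labels, 12 ATAC-seq libraries came from bone marrow of single NZO/HILtJ mice, 3 in each of 4 age and sex groups. The authors deposited 1 table of read counts per consensus peak, whole numbers with a smallest value of 1 and different totals per library. Trimmomatic, BWA, MACS2, DiffBind, edgeR and the build mm10 (GRCm38) are named, without versions or roles, per the submitters' processing notes. The treatment of duplicates, the shift of reads to the cut site and the rule for the consensus peaks are not given in the sources used here.

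Genes were placed by RefSeq positions on GRCm38.p6, without strand or exons, so that no exon or intron is named. The 75164 of 75281 peaks that exceeded 1 CPM in 2 or more libraries were scaled by TMM and tested with the quasi-likelihood F test of edgeR 4.0.16 (R 4.3.3). The model held age and sex over 12 libraries, or 4 group means for effects within a sex and the interaction, with Benjamini-Hochberg adjustment over all tested peaks and a threshold of 0.05. Fold changes are log2, 18 months over 3 months; the SE came from the F statistic. The scripts were tested on simulated data.

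The strongest peak of each gene (highest mean CPM) and its called peak with the largest change were named. In the other lists, up to 3 called genes were named in each direction, beside a few of the same receptor complex or regulators, which were chosen after their values were seen. The members, the 13 lists and the tests were chosen with earlier results of these data known, so no count over them is independent support. DESeq2 1.42.0, other scalings, windows and filters, and leaving out each library were tried as alternatives. Mouse numbers were not shared between groups and pair no samples. The precision of a weak peak is limited by its counts, which ran from 14 to 649 per library over the 47 peaks; counting error takes no account of duplicate reads.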

Additional observations from a re-analysis of the deposited data

How the results depend on the processing

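For the 47 platelet gene peaks, 12 calls in all, 8 lower and 4 higher, the count moved by more than 1.5 times with the window: within 50 kb of the genes 32 of 107 peaks were called, 22 lower (20.6%) and 10 higher (9.35%), and with gene bodies alone 5 of 36 were lower (13.9%) and 4 higher (11.1%), against 11.6% and 9.43% of all tested peaks. The erythroid list had 3 of 469 higher within 50 kb (0 of 258 within 10 kb) and 95 of 158 lower with gene bodies alone (155 of 258 within 10 kb). These windows take in more or fewer peaks. Rises within males, 1 in all, came to 0 with offsets on abundance or on width and to 2 with total counts. Leaving out each library in turn gave 1 to 4 higher, 7 to 10 lower and 9 to 14 called in all; the lowest of the higher counts came without the 3-month female of run 28 and the next, 2, without 18-month female 36. The erythroid list then had 0 to 1 higher (1 without the 3-month female of run 31) and 136 to 179 lower. Within females 1 to 3 rose (1 without 18-month female 35, 36 or 42 or the 3-month female of run 28 or 31) and 2 to 5 fell (2 without 18-month female 36, and 3 without 18-month female 35 or the 3-month female of run 29 or 31). Within males 0 to 3 rose (0 without 18-month male 38 or 40 or the 3-month male of run 29, 3 without that of run 31 and 2 without that of run 30) and 3 to 4 fell. The interaction was called at 0 to 2 peaks (2 without the 3-month male of run 31). Where an arm was left with 2 mice, the fit pooled the spread over all groups. None of the 12 called platelet gene peaks, nor the strongest peak of any of the 6 genes, changed sign under the 19 alternatives; signs at single peaks of the other lists were not followed. The other counts stayed within 1.5 times; the cause of each lost call was not tested. Without the 3-month male of run 30, all 12 calls were kept and 2 more peaks fell, at Itga2b (chr11:102452785-102453144, log2 fold change -0.59, edgeR adjusted p = 0.0474) and Gp9 (chr6:87782178-87783559, -0.52, edgeR adjusted p = 0.00655). No paired analysis was possible because the groups compared share no mouse numbers. Weak peaks such as those of Pf4 have wider errors, and the confounding of age with run limits every age comparison here.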
